A study of Mus musculus with 16 samples.

Results

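The genes of the oligodendrocyte lineage described here are 9 of the 57132 genes counted in mouse neural stem cells: Olig1, Olig2, Nkx2-2, Myrf, Bcas1, Cspg4, Cnp, Mbp and Enpp6. The set was given by name, for the genes' place in the lineage, with no measured value in the rule, though earlier results of these data were known when it was chosen. RNA-seq counts were deposited for 12 libraries of mouse neural stem cells grown under growth-factor conditions that keep the cells self-renewing. Of these, 6 libraries had received the TAPIR treatment and carry the label gRNA, and 6 were controls without it. Each group has 3 libraries in the labelled batch 2 and 3 in batch 1. All 12 libraries thus share the cell type and the growth-factor medium, and the labels state no further allele, strain, age or agent, nor what the guide targets or what TAPIR stands for. Libraries 4, 5 and 6 of each group are those of batch 2 and libraries 1, 2 and 3 those of batch 1. The numbering only names libraries, and the labels do not state whether gRNA and control libraries were paired. The tests treated them as unpaired. No label tells whether libraries of 1 group and batch were grown as separate cultures. The p-values below rest on the spread between libraries, which may be technical.

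Oligodendrocytes make the myelin of the central nervous system, and they arise from neural stem cells through a dividing progenitor. The basic helix-loop-helix factors OLIG1 and OLIG2 mark the lineage from its start, and OLIG2 is also made by many cultured neural stem cells. NKX2-2 and, later, MYRF act in the step from progenitor to myelinating cell. Cspg4 encodes the NG2 proteoglycan of the progenitor surface, which pericytes also carry. Bcas1 and Enpp6 are used as marks of newly formed oligodendrocytes, and Cnp and Mbp encode proteins of the myelin sheath itself.

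OLIG2 and its relatives bind E-boxes, 6-letter sites that read CANNTG on both strands alike. RefSeq promoter sequences (GRCm38.p6) were held for 5 of the 9 genes. The 3 shown are those of Nkx2-2, which was close to 0 in batch 2, and of Cspg4 and Cnp, which were higher there (below). Each is the 250 bases before the gene's start, on the gene's strand, at chr2:147186403-147186652 (minus strand) for Nkx2-2, chr9:56864854-56865103 (plus strand) for Cspg4 and chr11:100574689-100574938 (plus strand) for Cnp. Capitals mark each match to CANNTG.
Nkx2-2: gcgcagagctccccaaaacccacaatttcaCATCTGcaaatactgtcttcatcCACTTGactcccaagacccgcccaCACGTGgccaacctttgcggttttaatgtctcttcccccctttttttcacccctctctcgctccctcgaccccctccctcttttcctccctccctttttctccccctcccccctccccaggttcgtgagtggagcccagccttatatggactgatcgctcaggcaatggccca
Cspg4: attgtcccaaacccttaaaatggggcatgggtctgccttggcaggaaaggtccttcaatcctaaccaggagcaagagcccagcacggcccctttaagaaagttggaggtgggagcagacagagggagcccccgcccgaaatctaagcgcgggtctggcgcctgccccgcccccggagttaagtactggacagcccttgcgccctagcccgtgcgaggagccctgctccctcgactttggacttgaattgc
Cnp: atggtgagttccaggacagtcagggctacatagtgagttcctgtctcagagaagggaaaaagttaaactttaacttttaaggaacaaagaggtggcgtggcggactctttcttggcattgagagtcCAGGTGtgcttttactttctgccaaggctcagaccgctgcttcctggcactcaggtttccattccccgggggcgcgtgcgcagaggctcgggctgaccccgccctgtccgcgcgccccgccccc
The Nkx2-2 window held 3 matches, the Cnp window 1 and the Cspg4 window 0. The window of Olig2, which was also called lower in batch 2 (below), is not shown and held 0. Among 32851 RefSeq promoter windows of this length, 66.2% held at least 1 match and 12.2% held at least 3, so these counts lie within the common range. A match is a run of letters and not a bound site.

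Total counts in genes ranged from 8414028 to 19454390 per library with a median of 14918917, and the shallowest libraries were control library 2 and gRNA library 1 (10515276). Levels are given as CPM, counts set against a library total that is scaled by the trimmed mean of M-values (TMM), which allows a gene to be compared between libraries but not with another gene, since no gene lengths were used. The stem cell genes Nes and Sox2, which encode the filament nestin and a factor of neural progenitors, averaged 557 ± 32.3 and 146 ± 24.0 CPM in batch 2 and 600 ± 138 and 154 ± 23.5 CPM in batch 1 (SD, n = 6 each). They are among 14 stem cell markers, of which 9 were lower and 1 higher in batch 2 (below). Prom1, 1 of those lower, averaged 0.284 ± 0.344 CPM in batch 2 and 5.62 ± 1.5 CPM in batch 1 (SD, n = 6 each). Reads that the counting assigned to no feature were 8.83% to 12.7% of all reads in batch 2 and 19.0% to 25.1% in batch 1, and the part of this difference in the batch results was not tested.

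Olig1 and Olig2 were well expressed in every library. Olig1 had 200, 219 and 265 CPM in gRNA libraries of batch 2 and 263, 224 and 270 CPM in control libraries of batch 2. In batch 1 it had 297, 187 and 196 CPM in gRNA libraries and 236, 389 and 177 CPM in control libraries. The high values were those of gRNA library 1 and control library 2, the shallowest libraries, and the groups overlapped in both batches. Olig2 had 184, 196 and 234 CPM in gRNA libraries of batch 2 and 223, 205 and 222 CPM in control libraries of batch 2. Its batch 1 values were 302, 218 and 229 CPM in gRNA libraries and 258, 402 and 220 CPM in control libraries, with the same libraries highest.

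The counts behind these levels moved less than depth did. Olig1 had between 2933 and 3712 counts in the 12 libraries, a 1.27-fold range, and Olig2 had between 2969 and 4207, a 1.42-fold range, while total counts ranged 2.31-fold. Between control library 2 and control library 3, the shallowest and the deepest, total counts stood at a ratio of 0.433, and the median ratio over 11739 genes with at least 100 counts in control library 3 was 0.393. For Olig1 that ratio was 0.864, as high as in 0.264% of these genes, and for Olig2 it was 0.72, as high as in 1.96%. Cnp (0.383) and Myrf (0.346) had ratios near the median gene, while Cspg4 (0.289) and Bcas1 (0.216) had low ones, at or above which lay 87.9% and 96.6% of these genes. The ratio of Nkx2-2 was 0.81, as high as in 0.588% of genes, between libraries of which control library 3 was low in its CPM. High CPM of Olig1 and Olig2 in the shallow libraries therefore went with counts that changed little, and the cause was not tested. Over the 1786 genes with at least 3000 counts in control library 3 the median ratio was 0.438, close to that of the totals, and the highest count of any gene in any library was 21558. The sources used here do not state whether duplicate reads were removed before counting. In libraries of unequal depth, the CPM of Olig1, Olig2 and any other gene whose counts moved little with depth carries that reservation. In raw counts Olig1 ran from 3491 to 3712 in batch 2 and from 2933 to 3394 in batch 1 with no overlap, whereas its CPM overlapped.

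**Figure D1:**
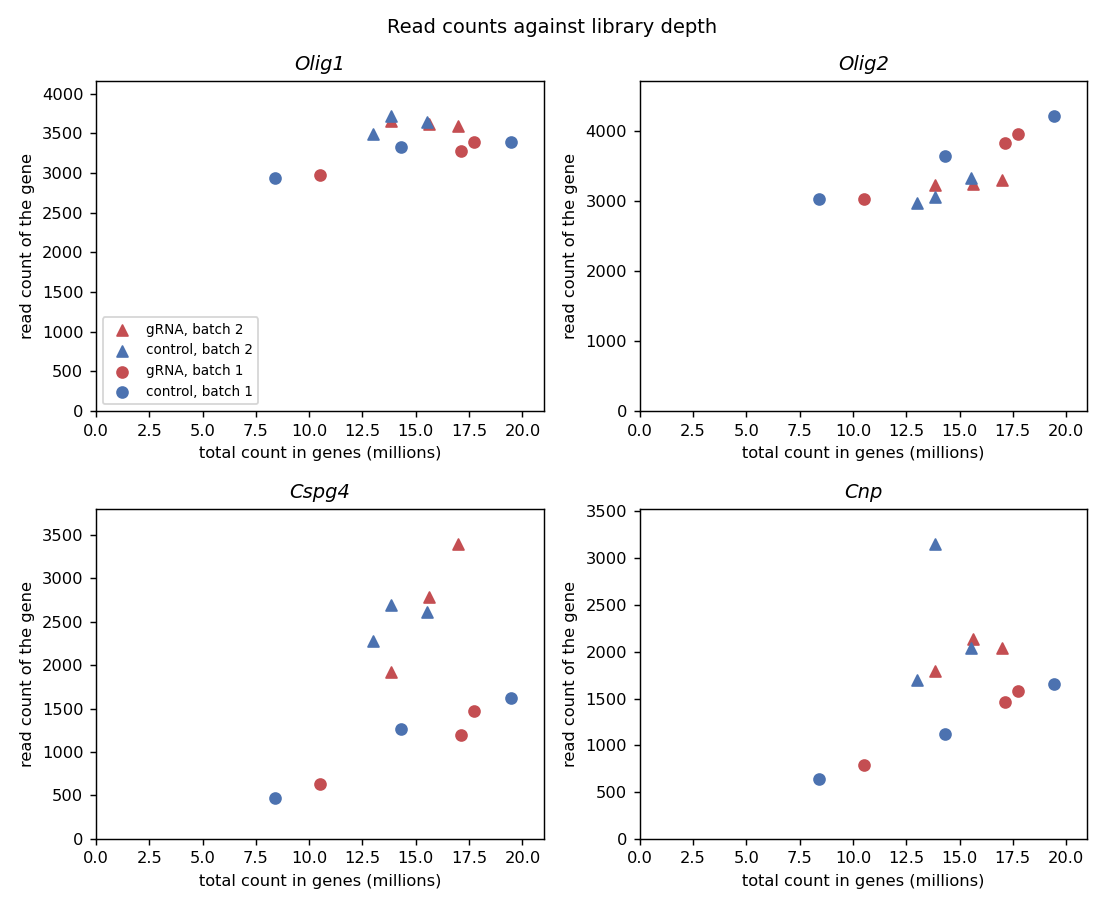
Read counts of Olig1, Olig2, Cspg4 and Cnp (vertical axes) against the total count in genes of the library (horizontal axes), with a point for each of the 12 libraries, shaped by batch and coloured by treatment. All axes are linear and start at 0, and the points of Olig1 and Olig2 stay within a 1.27-fold and a 1.42-fold range of counts over a 2.31-fold range of depth.

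Nkx2-2, a homeodomain factor of ventral progenitors and of maturing oligodendrocytes, was present in batch 1 and almost without counts in batch 2. It had 0.112, 0 and 0.145 CPM in gRNA libraries of batch 2 and 0, 0.0616 and 0 CPM in control libraries of batch 2. In batch 1 it had 30.8, 30.4 and 13.3 CPM in gRNA libraries and 27.9, 25.0 and 12.1 CPM in control libraries. All 6 batch 1 libraries lay above all 6 of batch 2, and within batch 1 gRNA library 3 and control library 3 were low. Summed over libraries, Nkx2-2 had 5 counts in batch 2 and 1899 in batch 1, a 405-fold lower level in batch 2 relative to TMM-scaled totals (exact 95% interval 173 to 1250, which covers counting error only).

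Myrf, the membrane-bound factor that switches on myelin genes, ran the other way. It had 30.5, 39.6 and 41.5 CPM in gRNA libraries of batch 2 and 29.8, 35.6 and 36.9 CPM in control libraries of batch 2, against 5.59, 6.49 and 5.79 CPM in gRNA libraries and 6.65, 7.43 and 8.46 CPM in control libraries of batch 1. Every library of batch 2 was above every library of batch 1, and in batch 1 the 3 gRNA libraries all lay below the 3 control libraries.

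Of the genes of progenitors and new oligodendrocytes, Cspg4 and Bcas1 were both higher in batch 2. Cspg4 had 190, 169 and 139 CPM in gRNA libraries and 172, 161 and 196 CPM in control libraries of batch 2, against 63.6, 81.2 and 71.1 CPM in gRNA libraries and 89.7, 62.1 and 84.5 CPM in control libraries of batch 1. The batches did not overlap and the treatments did. Bcas1 had 137, 134 and 133 CPM in gRNA libraries and 153, 141 and 160 CPM in control libraries of batch 2, where the treatments did not overlap. In batch 1 Bcas1 had 32.2, 27.2 and 50.6 CPM in gRNA libraries and 23.6, 28.4 and 51.8 CPM in control libraries. Library 3 of each treatment was thus high in Bcas1, and these were the libraries low in Nkx2-2. Enpp6, a choline phosphodiesterase, had between 3 and 10 counts per library in batch 2 (0.223 to 0.728 CPM) and between 0 and 6 in batch 1 (0 to 0.358 CPM), below the low-count filter of the test, and it was not called in the fit without that filter.

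The myelin genes were far apart in how well they were measured. Cnp, an enzyme of non-compact myelin, had 114, 130 and 130 CPM in gRNA libraries and 128, 126 and 229 CPM in control libraries of batch 2. In batch 1 Cnp was even, at 79.0, 87.0 and 87.1 CPM in gRNA libraries and 79.5, 84.2 and 86.5 CPM in control libraries. Control library 6 stood out, and the remaining batch 2 libraries were still above all of batch 1. Mbp, the main protein of compact myelin, had 11, 12 and 27 counts in gRNA libraries and 5, 10 and 34 in control libraries of batch 2, against 8, 12 and 3 in gRNA libraries and 11, 1 and 6 in control libraries of batch 1. Its highest levels, 2.48 and 1.95 CPM, were in control library 6 and gRNA library 6, and all 4 sets overlapped.

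**Figure D2:**
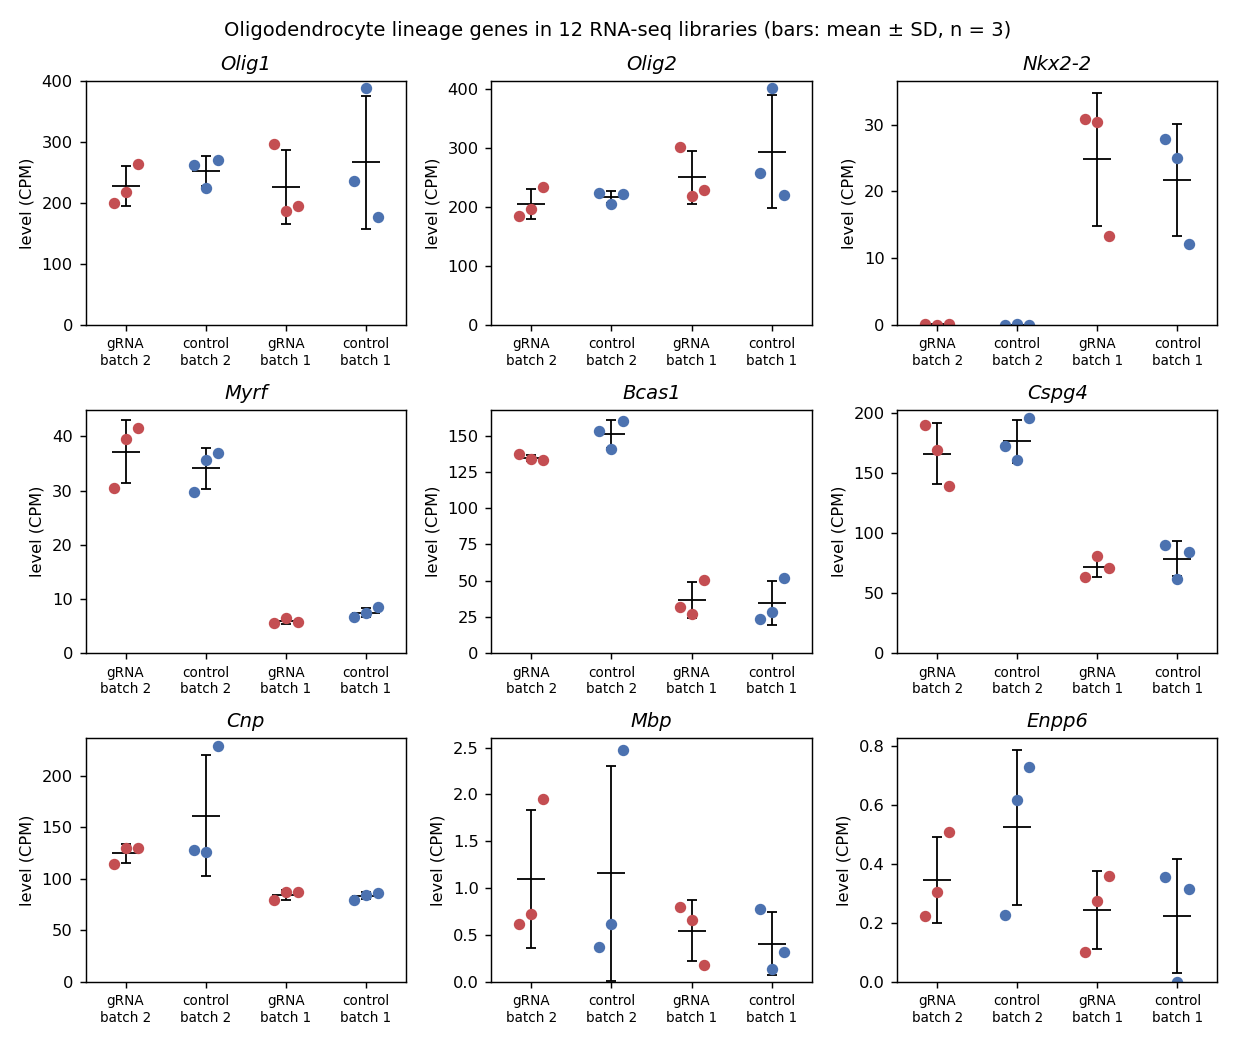
Level of each of the 9 genes (CPM, 1 panel per gene, each with its own vertical axis) in the 12 libraries, with gRNA left of control and batch 2 left of batch 1; points are libraries, and lines are group means with the SD of 3 libraries. Nkx2-2 lies near 0 in all 6 libraries of batch 2, where Myrf, Bcas1, Cspg4 and Cnp are above all libraries of batch 1.

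The comparison named by the series is that of gRNA with control libraries, and it asks what the treatment does to self-renewing cells. None of the lineage genes passed the test (edgeR quasi-likelihood with batch as a term, Benjamini-Hochberg adjusted p under 0.05): 0 of 8 tested, against 0% of all 17704 genes tested, and 0 of the 8 at an unadjusted p under 0.05, against 1.3% of all genes (230). DESeq2 and limma-voom called 0 genes as well, with 216 and 232 at an unadjusted p under 0.05. Evenly spread p-values would put a share of 0.05 of genes under that limit, and the share was smaller here and within each batch (below). The p-values thus ran large, for reasons that were not tested, and 0 calls do not show an absence of effect. Olig2 averaged 205 ± 25.8 CPM in gRNA and 217 ± 9.98 CPM in control libraries of batch 2, and 250 ± 46.0 and 293 ± 96.2 CPM in those of batch 1 (SD, n = 3 each), a log2 fold change of −0.16 ± 0.13 (SE). The log2 fold changes of the rest were −0.19 ± 0.17 for Olig1, 0.26 ± 0.35 for Nkx2-2, −0.08 ± 0.13 for Myrf, −0.05 ± 0.18 for Bcas1, −0.11 ± 0.10 for Cspg4, −0.18 ± 0.14 for Cnp and 0.03 ± 0.53 for Mbp (SE). The 95% intervals set what the data could still hold: −0.45 to 0.13 for Olig2, −0.33 to 0.11 for Cspg4 and −1.09 to 1.16 for Mbp on the log2 scale. The fold change of Cnp rested on 1 library, since without control library 6 it was −0.00064. For Olig1 and Olig2 it was −0.03 and −0.02 without control library 2.

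Within a batch the test again called no lineage gene, with 0 of 7 in batch 2 (0% of 15647 genes called, and 0.741% or 116 at an unadjusted p under 0.05) and 0 of 8 in batch 1 (0% of 16988 called, and 0.865% or 147 at an unadjusted p under 0.05). Nkx2-2 had too few counts for the test in batch 2. Without both libraries numbered 6, a setting chosen after seeing the data, the batch 2 test again called 0 genes. In that fit 606 of 15982 genes and 2 of 7 lineage genes had an unadjusted p under 0.05, beside 0 of 7 lineage genes with all libraries. The gRNA and control libraries of Bcas1 did not overlap in batch 2, where 135 ± 2.33 CPM stood against 152 ± 9.51 CPM (SD, n = 3 each) and the log2 fold change was −0.16 ± 0.08 (SE), and 5.16% of all genes did not overlap there (2.31% lower). Those of Myrf did not overlap in batch 1, at 5.96 ± 0.47 CPM in gRNA and 7.52 ± 0.909 CPM in control libraries (SD, n = 3 each), with a log2 fold change of −0.33 ± 0.19 (SE), against 5.03% of all genes without overlap (2.21% lower). In batch 2 the Myrf fold change was 0.13 ± 0.16, and the difference of its effect between the batches was 0.46 ± 0.23 on the log2 scale (SE), which did not pass the edgeR test (adjusted p = 1). No lineage gene passed that test of the difference, where 0% of 18279 genes were called and 236 (1.29%) had an unadjusted p under 0.05.

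**Figure D3:**
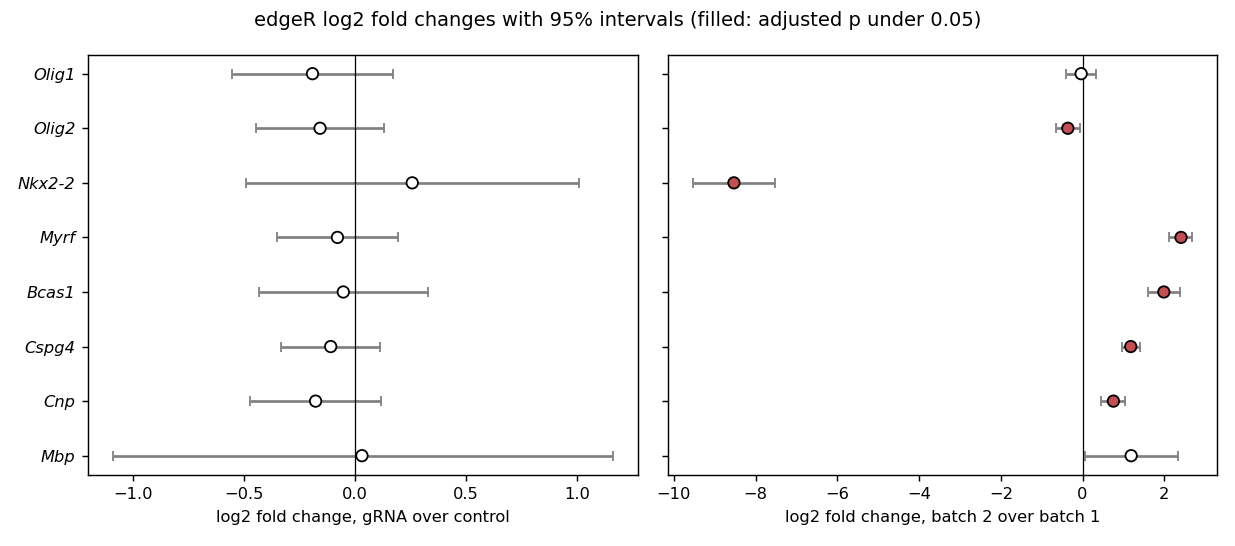
Log2 fold changes with 95% intervals for the 8 tested genes, of gRNA over control libraries with both batches in the fit (left panel) and of batch 2 over batch 1 (right panel, with a wider axis), filled where the adjusted p is under 0.05. All 8 gRNA intervals span 0, whereas between the batches Myrf, Bcas1, Cspg4 and Cnp lie above 0 and Nkx2-2 and Olig2 below.

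The labelled batches differed far more than the treatments. Batch 2 was higher than batch 1 in Myrf, Bcas1, Cspg4 and Cnp and lower in Nkx2-2 and Olig2, while Olig1 and Mbp did not pass the test. That is 6 of 8 tested genes called, against 61.4% of all 17704 genes (28.4% higher and 33.1% lower), so the share called is near the background. At an unadjusted p under 0.05 it was 7 of 8, against 64.9% of all genes. The median log2 fold change was 0.97 over the 8 genes and −0.03 over all genes tested. The 5 genes whose batches did not overlap, of 8, compare with 41.6% of all genes (17.3% higher and 24.3% lower). Batch in the labels is a number only, and a change of cultures, library preparation and sequencing cannot be told apart in it. In these bulk samples, fewer cells of a type and less RNA per cell cannot be told apart either.

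Myrf averaged 35.6 ± 4.73 CPM in batch 2 and 6.74 ± 1.07 CPM in batch 1 (SD, n = 6 each), 5.3-fold higher in batch 2, with a log2 fold change of 2.41 ± 0.13 (SE, edgeR adjusted p = 1.71e-09). Bcas1 averaged 143 ± 11.1 CPM in batch 2 and 35.6 ± 12.4 CPM in batch 1, or 3.99-fold higher (log2 1.99 ± 0.18, adjusted p = 3.71e-07). Cspg4 was 2.27-fold higher, at 171 ± 20.5 CPM in batch 2 and 75.4 ± 11.4 CPM in batch 1 (log2 1.18 ± 0.11, adjusted p = 2.82e-07). Cnp was 1.69-fold higher, at 143 ± 42.9 CPM in batch 2 and 83.9 ± 3.75 CPM in batch 1 (log2 0.76 ± 0.14, adjusted p = 0.000264), and its log2 fold change was 0.58 without control library 6. For Nkx2-2 the fitted log2 fold change was −8.53 ± 0.47 (adjusted p = 1.97e-09), a value that depends on the prior count at so few reads, so the ratio of counts above is the better measure.

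The calls for Olig1 and Olig2 were unstable to which libraries entered. Olig2 averaged 211 ± 18.7 CPM in batch 2 and 271 ± 71.6 CPM in batch 1 (SD, n = 6 each), a log2 fold change of −0.36 ± 0.13 (SE, edgeR adjusted p = 0.0313), and it no longer passed when any 1 of 6 libraries was left out (gRNA library 1, 4 or 5, control library 2, 4 or 5), with adjusted p from 0.0538 to 0.0815. Its log2 fold change stayed below 0 in each such fit, at −0.20 without control library 2 and from −0.35 to −0.30 without 1 of the other 5. Without gRNA library 1 and control library 2 together, the Olig2 value was −0.13 (adjusted p = 0.15). Olig1, with 240 ± 29.3 CPM in batch 2 and 247 ± 82.6 CPM in batch 1, had a log2 fold change of −0.03 ± 0.17 (adjusted p = 0.875), and without those 2 libraries it was 0.28 (adjusted p = 0.0256), higher in batch 2. With the log2 total count as a covariate, Olig2 was −0.27 (adjusted p = 0.000186) and Olig1 0.09 (adjusted p = 0.0651). Both alternatives were added after seeing the data. The 6 calls thus name different genes without the shallow pair, with Olig1 in and Olig2 out. Mbp averaged 1.13 ± 0.866 CPM in batch 2 and 0.477 ± 0.304 CPM in batch 1, a log2 fold change of 1.19 ± 0.53 (adjusted p = 0.0658), which passed without gRNA library 4 (1.36, adjusted p = 0.0473) or control library 4 (1.37, adjusted p = 0.0342) and was 0.30 (adjusted p = 0.562) without both libraries numbered 6.

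Within a batch, libraries varied in ways that the treatment did not follow. The deviations of Olig1 and Olig2 from their batch mean ran closely together over the 12 libraries (Pearson r = 0.988 on log2 CPM), and the strongest of the other pairs was Olig2 with Cspg4 (r = −0.638). Libraries share their depth, so this is a description of them and not of the genes. The genes most like Olig2 among 11413 candidates by the same measure over the 12 libraries were Cox8a, a respiratory chain subunit (r = 0.994), Gnb1, a G-protein subunit (0.994), Rhoa, a small GTPase (0.994), Uba1, the ubiquitin-activating enzyme (0.994), and Sept9, a septin (0.993). Their counts also moved little with depth: the ratio of control library 2 to control library 3 was 0.749 for Cox8a and 0.709 for Gnb1. The genes most like Mbp were Spock2 (r = 0.92), Cc2d1a (0.899), Gnb5 (0.896), Ugdh (0.894) and Gprin1 (0.881), against a gene of 1 to 34 counts per library.

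**Figure D4:**
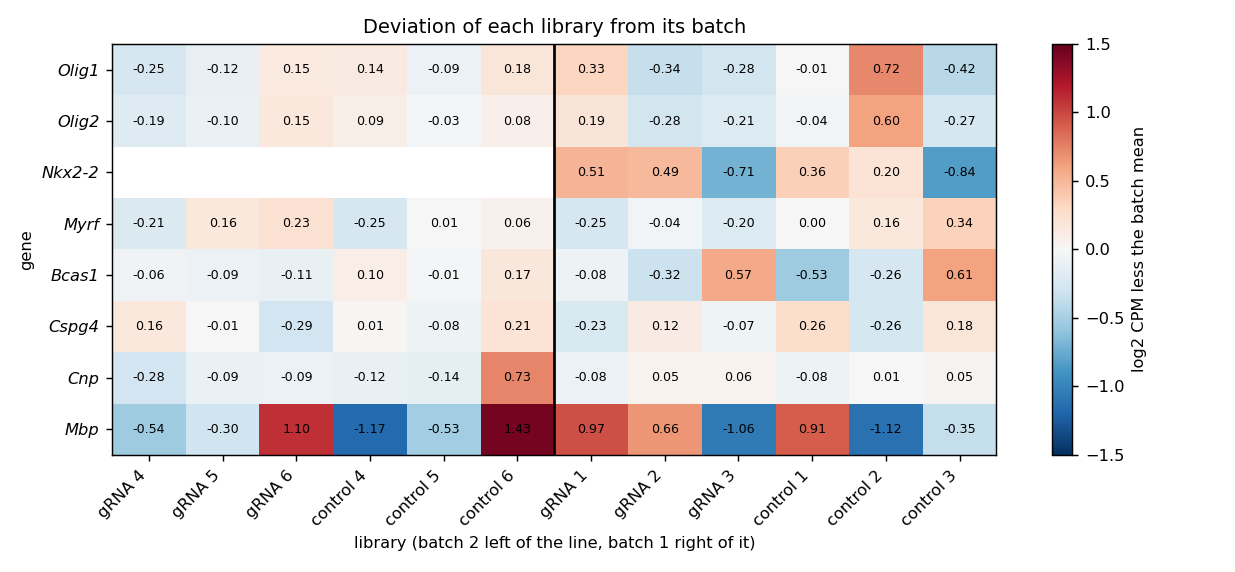
Deviation of each gene's log2 CPM from its batch mean (colour scale, log2 units) in the 12 libraries, with gRNA left of control in each batch; Nkx2-2 is left blank in batch 2 and Enpp6 is not shown, for too few counts. In batch 1, control library 2 is highest in Olig1 and Olig2 with gRNA library 1 next, and library 3 of both treatments is high in Bcas1 and low in Nkx2-2, while in batch 2 control library 6 is high in Cnp.

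Control library 6 was high in further genes of the lineage, named here after their values were seen. Pdgfra, the growth factor receptor of progenitors, had 106 CPM in control library 6 and 28.7 to 47.4 CPM in the other 5 libraries of batch 2. Gpr17, a receptor of the progenitor-to-oligodendrocyte step, had 39.4 CPM against 3.63 to 6.88 CPM, and Gjc3, a connexin of oligodendrocytes, had 200 CPM against 50.9 to 71.7 CPM. Other myelin genes were lowest in this library: Car2, a carbonic anhydrase, had 48.7 CPM against 83.3 to 100 CPM, Ugt8a, which makes myelin galactolipid, 2.69 against 3.46 to 4.49 CPM, and Qdpr 36.5 against 43.1 to 47.9 CPM. The library was also highest in 8 of 13 astrocyte markers and 9 of 14 neural stem cell markers with a mean of at least 10 counts, beside 5 of 8 lineage genes, 10 of 15 progenitor genes and 9 of 16 myelin genes. It was lowest in 2 of the astrocyte markers, 0 of the stem cell markers, 0 of the lineage genes, 1 of the progenitor genes and 3 of the myelin genes. Over all 16565 genes with such counts it was the highest of batch 2 in 34.4% and the lowest in 29.1%. The part of these differences in the values of Cnp and Mbp was not tested.

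Other genes of the lineage, taken from lists chosen with earlier results of these data known, gave no call between gRNA and control libraries in any batch. In the list of oligodendrocyte transcription factors, 16 of 18 genes had enough counts over both batches and 0 were called, and likewise 0 of 15 progenitor genes, 0 of 15 premyelinating genes, 0 of 17 myelin genes and 0 of 16 inhibitors and inducers of the fate. Their median log2 fold changes were −0.13, −0.05, −0.08, −0.05 and −0.15 in that order, beside −0.01 over all genes. Where a gene averaged 50 counts or more, the member with the smallest p was Sall3 among the transcription factors (−0.11 ± 0.08), Bcan among the progenitor genes (−0.18 ± 0.11), Plxnb3 among the premyelinating genes (−0.31 ± 0.19) and Egfr among the inhibitors and inducers (−0.21 ± 0.11), all as log2 fold change ± SE. In batch 2 Id4, which holds back oligodendrocyte differentiation, had a log2 fold change of −1.69 ± 0.69 (edgeR adjusted p = 0.998), which rested on control library 6, with 25.6 CPM against 3.24 to 5.3 CPM in the other 5 libraries of batch 2.

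Between the batches the lists moved in both directions, and so did genes at large. Over all 17704 genes tested 28.4% were higher in batch 2 and 33.1% lower, 61.4% in sum. The counts of each list stand beside that background and were not tested against it. Of 16 transcription factors tested, 2 rose in batch 2 and 9 fell, with a median log2 fold change of −0.71. Sox6 (0.56 ± 0.13), Sox8 (0.34 ± 0.10), Zeb2 (−1.11 ± 0.12) and Tcf7l2 (−1.08 ± 0.11) were among them, as log2 fold change ± SE. Zeb2 and Tcf7l2 are factors of oligodendrocyte maturation. Zeb2 averaged 120 ± 22.4 CPM in batch 2 and 260 ± 30.4 CPM in batch 1 (SD, n = 6 each). Nkx6-2, a homeodomain relative of Nkx2-2, had 0 counts in batch 2 and 239 in batch 1, at least 85-fold lower with a floor of 3 counts over the group, and the median of the list is the same with Nkx6-2 at that bound. Sox10, the factor that defines committed oligodendrocyte cells, had only 6 counts in batch 2 and 33 in batch 1 and was not tested.

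Of 15 progenitor genes tested, 7 rose and 4 fell (median 0.20), and these counts were 6 and 2 without gRNA library 1 and control library 2. The number that fell was also 2 when 1 of gRNA libraries 1, 4 and 5 or control libraries 2, 4 and 5 was left out. C1ql1, a secreted protein of progenitors, averaged 13.1 ± 3.29 CPM in batch 2 and 1.05 ± 0.37 CPM in batch 1, and Pdgfra averaged 48.8 ± 28.8 and 20.2 ± 5.45 CPM (SD, n = 6 each, log2 fold change 1.20 ± 0.29, SE). Lhfpl3, another progenitor marker, was lower, at 10.7 ± 3.15 CPM in batch 2 and 30.9 ± 7.94 CPM in batch 1. Of 15 premyelinating genes, 5 rose and 5 fell. Plxnb3, a semaphorin receptor, rose the most, at 268 ± 89.3 CPM in batch 2 and 18.2 ± 3.54 CPM in batch 1 (log2 fold change 3.84 ± 0.20, SE), while Itpr2 averaged 69.4 ± 7.39 and 155 ± 22.1 CPM.

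Of the 30 myelin and mature oligodendrocyte genes, 17 had enough counts, 5 rose and 7 fell (median −0.04, beside −0.03 over all genes). Gjc3 averaged 83.4 ± 57.6 CPM in batch 2 and 10.2 ± 7.28 CPM in batch 1, and Mal, a myelin lipid-raft protein, 3.05 ± 1.71 and 0.407 ± 0.161 CPM. Against these, Trf, the iron carrier transferrin, averaged 10.6 ± 1.24 CPM in batch 2 and 256 ± 61.3 CPM in batch 1, and Aspa, which splits N-acetylaspartate, 0.438 ± 0.193 and 14.4 ± 2.95 CPM (SD, n = 6 each). Mog and Mag, proteins of the mature sheath, were close to 0 in both batches, with 29 and 1 counts in batch 2 and 29 and 2 in batch 1. Of 16 inhibitors and inducers of the fate, 7 rose and 5 fell (median −0.06). Shh, the ventral signal that induces Olig2 and Nkx2-2 in the neural tube, averaged 0.97 ± 0.43 CPM in batch 2 and 12.9 ± 7.97 CPM in batch 1, whereas Gli1, a target of that signal, averaged 4.09 ± 2.11 and 0.944 ± 0.372 CPM.

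**Figure D5:**
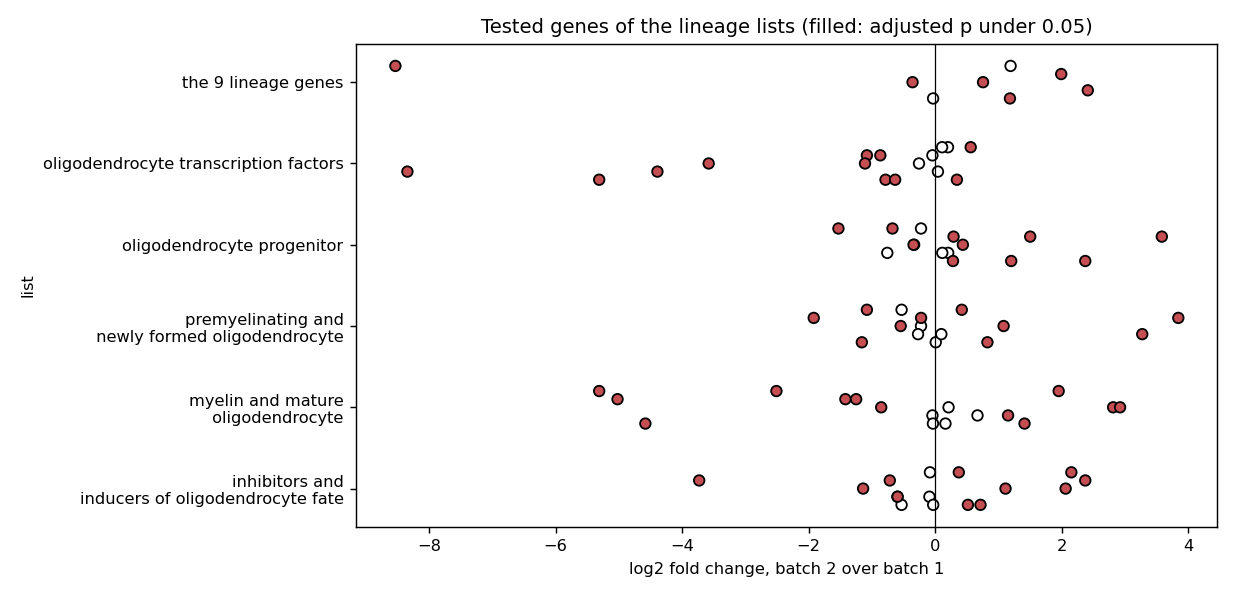
Log2 fold changes of batch 2 over batch 1 (horizontal axis) for the tested genes of each list (rows), with a point per gene, filled where the adjusted p is under 0.05, and the 8 tested lineage genes in the top row (labelled for all 9); the height of a point within a row has no meaning. Each row holds genes on both sides of 0, from −8.53 (Nkx2-2) to 3.84 (Plxnb3), and the points of genes with few or 0 counts in batch 2, such as Nkx2-2 and Nkx6-2, depend on the prior count.

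Markers of other cells moved between the batches as well, beside 28.4% of all 17704 genes tested that were higher in batch 2 and 33.1% lower. Astrocyte markers, of which 13 of 14 were tested, had 3 higher and 7 lower in batch 2, with a summed level of 1180 to 1670 CPM in batch 2 and 1510 to 2390 CPM in batch 1. Slc1a3, at 358 to 477 CPM in batch 2 and 402 to 806 CPM in batch 1, is in this list and in that of neural stem cells. Neuron markers had 2 higher and 8 lower of 11 tested (651 to 805 CPM in batch 2 and 787 to 1070 CPM in batch 1), and neural stem cell markers 1 higher and 9 lower of 14 (2280 to 2950 and 2690 to 4210 CPM), a count of 1 and 5 without gRNA library 1 and control library 2. Most of the neuron sum was Map2, at 600 to 745 CPM in batch 2 and 607 to 918 CPM in batch 1. Among the 8 lower, Elavl4 averaged 6.42 ± 1.87 CPM in batch 2 and 62.8 ± 5.37 CPM in batch 1. Among the 2 higher, Tubb3 averaged 17.2 ± 4.81 and 3.3 ± 0.862 CPM (SD, n = 6 each). Pericytes carry the NG2 proteoglycan of Cspg4. Of their 12 markers 5 were tested, with 2 higher (1 without gRNA library 6) and 2 lower in batch 2 and summed levels of 198 to 401 CPM in batch 2 and 266 to 344 CPM in batch 1. Nearly all of the batch 2 sum was Notch3, at 196 to 395 CPM. In batch 1 most of it was Notch3 (169 to 202 CPM) and Acta2 (57.9 to 164 CPM). The defining receptor of pericytes, Pdgfrb, had 1 count in batch 2 and 30 in batch 1, and Rgs5 had 3 and 113. Schwann cell markers had 4 higher and 2 lower of 7 tested, at 144 to 282 CPM in batch 2 and 135 to 170 CPM in batch 1. Among the 4 higher, Pou3f1 (log2 fold change 2.95) had 47.8 CPM in control library 6 and 139 to 159 CPM in the other libraries of batch 2. Among the 2 lower, Cdh19 had 6 counts in batch 2 and 3861 in batch 1. Endothelial markers summed to 8.26 to 27.2 CPM in batch 2 and 6.37 to 11.9 CPM in batch 1 (1 higher and 2 lower of 5 tested), and microglia markers to 1.31 to 2.86 and 3.05 to 6.63 CPM (2 lower of 2 tested). The part of these cell types in the levels of the lineage genes was not tested.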

How the data were processed

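RNA was made into libraries with a stranded total RNA kit after ribosomal depletion, per the labels' protocols. Trimmomatic, STAR, SAMtools and HTSeq and the GRCm39 build are named in the submitters' processing notes, without settings. Each library's file holds whole-number counts per Ensembl gene, as deposited by the authors, and summary lines that name no gene (15.6% to 30.3% of reads) were left out. Symbols were matched for 90.8% of genes, and 0 columns were left over. A table of ribosome footprint P-sites, listed by transcript, was not analysed here.

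From these, tests were run in R 4.3.3 with edgeR 4.0.16 (filterByExpr with a minimum count of 10, TMM scaling, quasi-likelihood F test, Benjamini-Hochberg adjustment over all genes, threshold 0.05). Batch was a term in the gRNA comparison, and treatment in that of the batches. The procedure was also run on simulated counts, drawn independently for each library and so without shared library structure. No result here rests on that run. Alternatives used DESeq2 1.42.0, limma 3.58.1 (voom), other size factors, no filter, no batch term and libraries left out. The gene set and all lists were chosen with earlier results of these data known. Named genes were the 9 genes, of each other list up to 3 per direction with the smallest p (with none called, the smallest p among genes averaging 50 counts or more), and the 5 most like Olig2 and Mbp. Intervals and floors of the count ratios cover counting error only. Those of the fitted fold changes come from the edgeR standard errors and rest on the spread between libraries. Depth was 8414028 to 19454390 counts per library. Promoter sequences are from RefSeq (GRCm38.p6), a build other than that of the counts. The strand setting of the counting was not given in the sources used here. One gene that the naming rule selects is not reported here.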

Additional observations from a re-analysis of the deposited data

Results flagged for a closer look

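A library far from the other 5 of its group was looked for in the 9 genes and 2 treatments, on log2 CPM less the batch mean, and 18 groups of 6 were screened, of which chance alone marks about 1 in 20. Bcas1 was marked in the gRNA libraries: gRNA library 3 lay 0.57 above its batch mean on the log2 scale, the next library at −0.06, and the gap was 0.705 of the whole range, above Dixon's critical value for 6 samples. Control library 3 was as high in Bcas1 (51.8 CPM). Cnp was marked in the control libraries: control library 6 lay 0.73 above its batch mean, the next library at 0.05, and the gap was 0.785 of the range. The part of other differences of these libraries in both values was not tested.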

How the results depend on the processing

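For the gRNA comparison over both batches, each batch alone and the difference between batches, 0 lineage genes were called under each alternative run, and for batch 2 against batch 1 it was 5 or 6 when each library in turn was left out and 7 without the low-count filter. No paired analysis was possible because the count libraries carry no replicate numbers in their labels. Alternatives on P-sites were not run. All values here are log2 fold changes. None of the gRNA values that turned sign was past the threshold.

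Over both batches, gRNA against control turned to 0.0522 for Myrf with no batch term and to −0.148 for Mbp without gRNA library 1 and control library 2. Leaving out each library in turn gave −0.151 to 0.00509 for Myrf, −0.199 to 0.122 for Bcas1 and −0.309 to 0.67 for Mbp. In batch 2, Mbp was 0.153 by limma-voom, 0.347 with the log2 total count as a covariate and 0.388 without both libraries numbered 6, Olig2 was 0.0182 with that covariate, and Cspg4 was 0.101 without both libraries numbered 6. One library left out gave −0.186 to 0.0255 for Cspg4 and −0.761 to 1.05 for Mbp. In batch 1, Mbp was −0.296 without gRNA library 1 and control library 2, and 1 library left out gave −0.47 to 0.137 for Olig1, −0.389 to 0.0671 for Olig2, −0.0948 to 0.515 for Nkx2-2, −0.239 to 0.518 for Bcas1, −0.0101 to 0.0694 for Cnp and −0.0338 to 1.01 for Mbp. For the difference between batches, Olig1 was −0.0327 and Mbp 0.212 without gRNA library 1 and control library 2, and Mbp was 0.157 without both libraries numbered 6. Leave-one-out ranges there were −0.252 to 0.337 for Olig1, −0.123 to 0.309 for Olig2, −0.696 to 0.0664 for Bcas1, −0.061 to 0.208 for Cspg4 and −1.1 to 0.826 for Mbp.

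In batch 2 against batch 1, Olig1 was 0.0244 without the low-count filter, 0.0168 by limma-voom, 0.0921 with the log2 total count as a covariate and 0.277 without gRNA library 1 and control library 2 (adjusted p = 0.0256), and −0.0944 to 0.16 with 1 library left out. Mbp passed without the filter (1.22, adjusted p = 0.00446). The causes were not tested. Without the filter the gRNA comparison over both batches called 1 gene of 37217 and the difference between batches called 42, of which 0 were lineage genes. In batch 2 against batch 1, 9 in place of 5 premyelinating genes fell with the covariate, and 7 in place of 2 pericyte markers and 4 in place of 2 Schwann cell markers without the filter. Alternatives with the covariate or without a pair of libraries were chosen after seeing the data. Depth limits Mbp, Enpp6 and, in batch 2, Nkx2-2, which had 34, 10 and 2 counts at most in a library of batch 2.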
